A study of Homo sapiens with 15 samples.

Results

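BUB1B, MAD2L1 and TOP2A are 3 genes of chromosome segregation, followed here across 5 groups of MV4-11 cells. They were found by name in the platform annotation, and each was measured by 1 feature of the array, 3 of the 14812 genes analysed. These genes and the gene lists used below were chosen with earlier results of these data known. MV4-11 is an established human acute myeloid leukemia line with a KMT2A-AFF1 fusion gene and an internal duplication in FLT3. Cells were exposed for 24 h to the vehicle DMSO, to DW71374, DW71177 or OTX015 at 300 nM each, or to RVX208 at 5 uM, with 3 arrays per group and 15 in all. Among the compounds, OTX015 (birabresib) is a pan-BET inhibitor, which occupies either bromodomain of these acetyl-lysine readers, and RVX208 (apabetalone) prefers their second bromodomain, whereas DW71177 and DW71374 are known here by code name. Total RNA was hybridised to Affymetrix whole-transcript arrays. The values were taken to be log2 signals normalized between arrays before deposit, which was inferred from the values themselves. On that reading a difference of 1 is a 2-fold change relative to the array as a whole.

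The spindle checkpoint delays anaphase until every chromosome is attached to the spindle. At unattached kinetochores MAD2L1 (Mad2) and BUB1B (BubR1) join BUB3 and CDC20 in the mitotic checkpoint complex, which restrains the anaphase-promoting complex and so keeps cyclin B and securin from being degraded. TOP2A, the topoisomerase II form of dividing cells, untangles sister DNA molecules and helps to compact mitotic chromosomes, and it is the target of anthracyclines and etoposide. All 3 genes are transcribed mainly in late S phase, G2 and mitosis, and genes of this class often carry a cell-cycle genes homology region (CHR) in their promoters, through which the DREAM complex keeps them off in resting cells.

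The promoters are shown because the 3 genes all fell with OTX015 and DW71177 and because CHR elements are typical of such genes. The RefSeq promoter table (GRCh38.p14) held all 3 genes, with 250 bases before and 50 after each gene start. The 250 bases before the start are printed 5′ to 3′ along the gene, and capitals mark the CHR letters TTTGAA and the CCAAT box, either of them on either strand (TTCAAA and ATTGG on the other strand). They cover chr15:40160819-40161068 on the plus strand for BUB1B, chr4:120066849-120067098 on the minus strand for MAD2L1 and chr17:40417897-40418146 on the minus strand for TOP2A.
BUB1B: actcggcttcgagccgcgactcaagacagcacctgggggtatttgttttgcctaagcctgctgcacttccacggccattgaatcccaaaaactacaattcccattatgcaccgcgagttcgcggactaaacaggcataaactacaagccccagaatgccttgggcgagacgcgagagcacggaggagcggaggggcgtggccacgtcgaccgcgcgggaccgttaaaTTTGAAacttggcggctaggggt
MAD2L1: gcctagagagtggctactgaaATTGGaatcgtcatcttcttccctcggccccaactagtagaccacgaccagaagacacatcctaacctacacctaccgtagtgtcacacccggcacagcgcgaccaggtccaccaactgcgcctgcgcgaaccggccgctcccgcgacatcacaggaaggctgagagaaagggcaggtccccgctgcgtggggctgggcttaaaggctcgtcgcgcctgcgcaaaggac
TOP2A: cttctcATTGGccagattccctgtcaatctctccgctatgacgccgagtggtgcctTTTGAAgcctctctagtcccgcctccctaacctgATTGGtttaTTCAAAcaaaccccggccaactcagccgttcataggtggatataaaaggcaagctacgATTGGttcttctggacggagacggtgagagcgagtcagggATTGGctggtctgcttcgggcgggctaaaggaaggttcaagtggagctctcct

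TTTGAA was present in all 3 promoter windows of 300 bases. It began at -23 in BUB1B, at 25 bases into the transcript in MAD2L1, and at -194 and, on the other strand, -151 in TOP2A. The MAD2L1 match lies past the annotated start and is printed here beside that of BUB1B in stretches of 30 bases, chr4:120066801-120066830 and chr15:40161040-40161069, because the surroundings of the motif are alike.
MAD2L1 site: gttactTTTGAAacgcttggcggggaagtg
BUB1B site: gttaaaTTTGAAacttggcggctaggggtg
The longest runs common to these 2 promoters were 8 letters long, TTTGAAAC and CTTGGCGG. They began at -23 and -16 in BUB1B, where they overlap, and at 25 and 34 in MAD2L1. Of 35116 promoters of 300 bases in the table, 1.12% held TTTGAAAC and 1.04% CTTGGCGG on either strand. Both runs were picked after the sequences had been seen. Runs of this length were not particular to the pair. MAD2L1 and TOP2A also shared runs of 8 letters (CCTAACCT, CTTTTGAA and TCCTAACC), and BUB1B and TOP2A runs of 7. TTTGAA itself was in 15.2% of all promoters and in 11.8% of the 10736 that belong to genes analysed here. TOP2A held 4 CCAAT boxes, all on the other strand, MAD2L1 held 1 and BUB1B 0, against 34.6% of all promoters with at least 1. The CHR variant TTCGAA, the E-box CACGTG and the E2F site letters TTTCCCGC and TTTGGCGC had 0 matches in the 3 windows, on either strand. A match is a description of letters, not evidence of a factor's binding, and a missing match says only that these letters are not in the window.

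**Figure D1:**
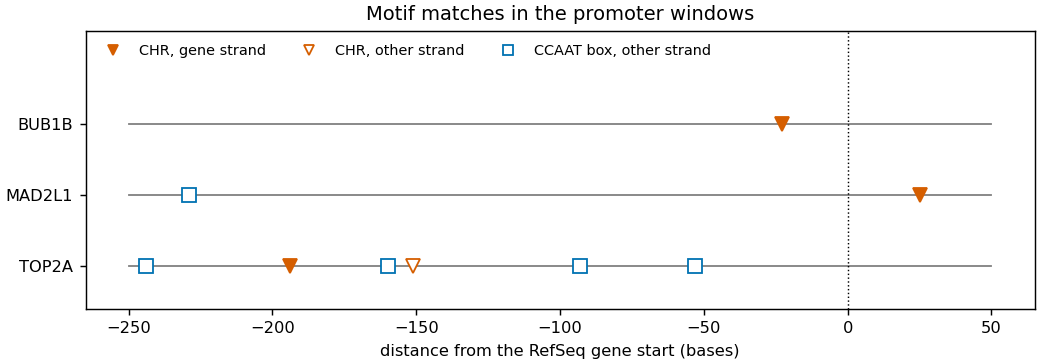
Matches of the CHR letters (triangles) and of the CCAAT box (squares) by distance in bases from the RefSeq gene start, filled on the gene strand and open on the other strand, for the 3 promoter windows. Each gene has a CHR match, before the start in BUB1B and TOP2A and after it in MAD2L1, and the CCAAT boxes crowd the TOP2A window with 4 matches.

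Array medians lay between 3.72 and 3.79, and the correlation of replicate arrays over genes was 0.992 to 0.995. Wells were in triplicate and the labels name no separate cultures, so the p-values reflect the spread among these arrays alone, and that spread may be technical. Of 8 listed myeloid markers 5 were measured. Over the group means the monocyte lysozyme gene LYZ lay at 9.96 to 11.11, the lineage factor SPI1 at 7.44 to 7.76 and CSF1R at 5.47 to 7.02. These and MPO, at 4.11 to 4.72, were above the array medians, while CD14 lay below them at 2.98 to 3.16. The mean of these 5 markers was 5.98 to 6.12 in the OTX015 arrays, 6.07 to 6.13 with DW71177, 6.35 to 6.44 with RVX208 and 6.68 to 6.72 in DMSO. The 3 measured lymphoid markers of 8, NKG7, PRF1 and IL7R, all fell with OTX015, and their mean was 4.21 to 4.24 there, 4.49 to 4.52 with DW71177, 4.52 to 4.68 with RVX208 and 5.22 to 5.31 in DMSO. Both marker means were lower in the same groups as the 3 genes, and their part in the results below was not tested. Over all arrays the 5 erythroid and megakaryocytic markers averaged 4.56 to 4.84, of which PF4 fell with OTX015, and the 4 epithelial and stromal markers averaged 4.25 to 4.47, with 0 called. These averages hide single bright genes. Over the group means KRT18 lay at 7.65 to 7.8, as high as SPI1, and KRT8 at 5.16 to 5.3, with EPCAM at 2.64 to 2.81 and DCN at 1.64 to 1.8. Of the lymphoid markers NKG7 lay at 6.26 to 7.46, PRF1 at 3.54 to 3.93 and IL7R at 2.86 to 4.53. Among the erythroid and megakaryocytic markers EPOR lay at 5.8 to 6, PF4 at 5.57 to 5.92 and GATA1 at 5.02 to 5.27. KLF1 lay at 4.48 to 4.72 and PPBP at 1.82 to 2.25. In this list, as in the myeloid one, 4 of 5 markers were above the array medians.

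BUB1B, the checkpoint kinase-like subunit, stood at 7.301, 7.263 and 7.246 in the 3 DMSO arrays and at 7.256, 7.228 and 7.300 with DW71374. It was 6.781, 6.898 and 6.898 with RVX208, 2 of these being the same deposited value. With DW71177 the signals were 6.689, 6.696 and 6.568, and with OTX015 they were 6.329, 6.390 and 6.498. The DMSO and DW71374 arrays overlapped and were the highest, and the RVX208, DW71177 and OTX015 arrays formed 3 lower bands that overlapped neither each other nor DMSO.

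MAD2L1, whose product changes shape at kinetochores to capture CDC20, stood at 7.596, 7.655 and 7.521 in DMSO and at 7.578, 7.537 and 7.558 with DW71374. RVX208 arrays gave 7.446, 7.425 and 7.240, DW71177 arrays 6.937, 7.202 and 7.157, and OTX015 arrays 6.656, 6.665 and 6.619. The groups lay in the order seen for BUB1B, again with DMSO and DW71374 overlapping, but the RVX208 and DW71177 arrays were more scattered (SD 0.114 and 0.142, n = 3 each, against 0.0242 with OTX015).

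TOP2A was the most even of the 3 genes among replicates. Its signals were 10.047, 10.042 and 10.059 in DMSO, 10.026, 10.073 and 10.050 with DW71374, and 9.754, 9.820 and 9.772 with RVX208. They were 9.628, 9.591 and 9.591 with DW71177 and 9.398, 9.409 and 9.429 with OTX015. The SD within a group was 0.00876 to 0.034, and the RVX208, DW71177 and OTX015 bands were each separate from the others and from DMSO. The RVX208 band is set beside the others without a test, since its dose differed.

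**Figure D2:**
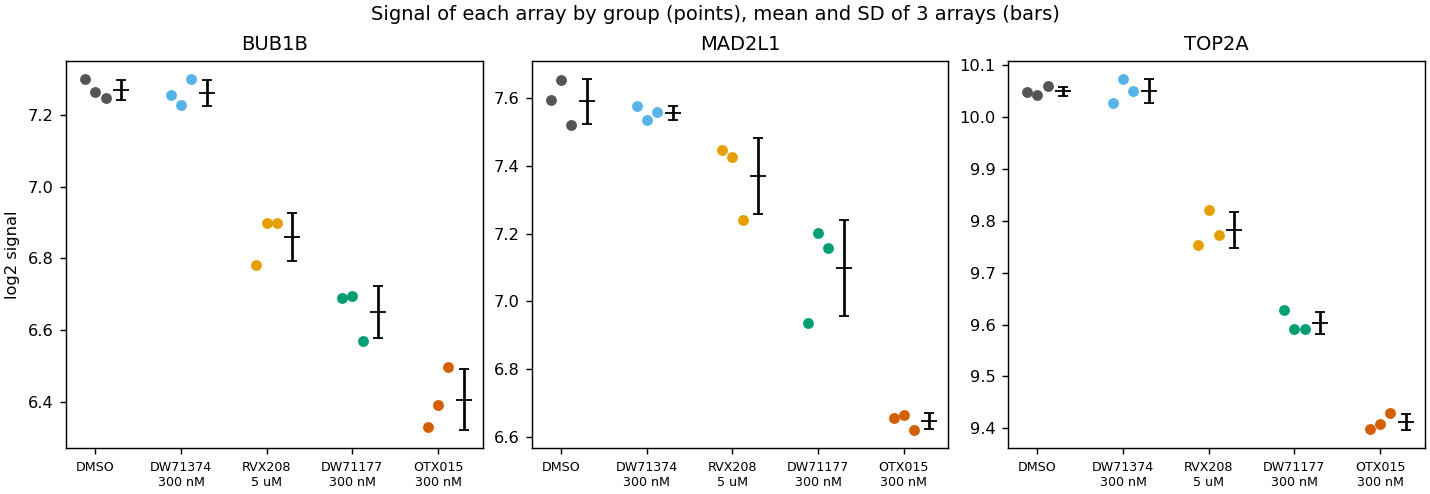
Log2 signal (y axis, which differs between panels and does not start at 0) of BUB1B, MAD2L1 and TOP2A in each of 15 arrays by group, with the mean and SD of 3 arrays beside the points. In each panel DMSO and DW71374 share the top level and OTX015 is the lowest, with MAD2L1 at 6.619 to 6.665 there.

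OTX015 was compared with DMSO to ask what a pan-BET inhibitor did to these genes. MAD2L1 fell 1.92-fold (log2 -0.94 ± 0.076, SE of the fit, 95% interval of the difference from -1.11 to -0.78, n = 3 and 3, and limma's adjusted p = 6.4e-07), which left 52.0% of the control signal. BUB1B fell 1.82-fold (-0.86 ± 0.062, interval -0.998 to -0.73, limma adjusted p = 2.6e-07) and TOP2A 1.56-fold (-0.64 ± 0.047, interval -0.74 to -0.54, limma adjusted p = 2.9e-07). All 3 genes passed the test, an adjusted p under 0.05 over all genes, where 25.7% of the 14812 genes were called, 14.5% lower and 11.2% higher. Ordered by the size of the fall, MAD2L1 was the 173rd, BUB1B the 232nd and TOP2A the 530th gene. RNA was taken from whole cultures, so fewer cells in late S phase, G2 and mitosis and less of each RNA per cell cannot be told apart.

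DW71177, at the dose of OTX015, lowered the same 3 genes relative to DMSO. BUB1B fell 1.54-fold (log2 -0.62 ± 0.062, interval -0.75 to -0.48, limma adjusted p = 9.5e-06), MAD2L1 1.41-fold (-0.49 ± 0.076, interval -0.66 to -0.33, limma adjusted p = 0.00033) and TOP2A 1.36-fold (-0.45 ± 0.047, interval -0.55 to -0.34, limma adjusted p = 1.4e-05). In this comparison 19.8% of all genes were called, 9.88% lower and 9.95% higher. These comparisons use the same 3 DMSO arrays as those of the other compounds.

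RVX208 at 5 uM lowered BUB1B 1.33-fold (log2 -0.41 ± 0.062, interval -0.54 to -0.28, limma adjusted p = 0.0013) and TOP2A 1.20-fold (-0.27 ± 0.047, interval -0.37 to -0.17, limma adjusted p = 0.0035), in a comparison with 6.52% of all genes called, 3.11% lower and 3.41% higher. MAD2L1 differed by -0.22 ± 0.076 (interval -0.38 to -0.06, limma adjusted p = 0.11) and did not pass, although its 3 RVX208 arrays all lay below the 3 DMSO arrays. It did pass among the genes with a group mean of at least 5 (limma adjusted p = 0.037) and with a trended, robust variance (limma adjusted p = 0.044), at the same difference.

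DW71374 at 300 nM gave differences from DMSO of -0.01 ± 0.062 for BUB1B, -0.03 ± 0.076 for MAD2L1 and 0.00 ± 0.047 for TOP2A (limma adjusted p = 1, 0.99 and 1). The 95% intervals ran from -0.14 to 0.13, from -0.20 to 0.13 and from -0.10 to 0.10, so a fall as large as that with DW71177 lay outside each of them. The whole comparison had 0 calls in limma, and 0 or 1 under the other settings tried. An unadjusted limma p under 0.05 was found for 686 of 14812 genes, no more than expected without any change.

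Of the 3 pairs of compounds at 300 nM, DW71177 and OTX015 were the pair in which both members had lowered the 3 genes. MAD2L1 was 1.37-fold higher with DW71177 (0.45 ± 0.076 above OTX015 on the log2 scale, 95% interval 0.29 to 0.62, limma adjusted p = 0.014). It was 47th of all genes by p in a comparison where 1.26% of genes were called, 1.07% higher and 0.182% lower with DW71177. This call was lost without DW71177 replicate 2 (limma adjusted p = 0.054), without DW71177 replicate 3 (limma adjusted p = 0.058) and in a fit of the 6 arrays alone (limma adjusted p = 0.28). BUB1B was higher by 0.25 ± 0.062 (interval 0.11 to 0.38, limma adjusted p = 0.077) and TOP2A by 0.19 ± 0.047 (interval 0.09 to 0.29, limma adjusted p = 0.066), and neither passed. Both passed among the genes with a group mean of at least 5 (limma adjusted p = 0.017 and 0.01) and with a trended, robust variance (limma adjusted p = 0.023 and 0.00055). For all 3 genes the DW71177 and OTX015 arrays did not overlap.

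Set against DW71374 in place of DMSO, DW71177 was lower by 0.61 for BUB1B, 0.46 for MAD2L1 and 0.45 for TOP2A (log2 -0.61 ± 0.062, -0.46 ± 0.076 and -0.45 ± 0.047; limma adjusted p = 1.1e-05, 0.00058 and 1.4e-05), with 19.5% of genes called, 9.51% lower and 9.98% higher. OTX015 gave -0.86 ± 0.062, -0.91 ± 0.076 and -0.64 ± 0.047 against DW71374 (limma adjusted p = 2.5e-07, 8.9e-07 and 2.8e-07), with 25.2% called, 14.0% lower and 11.1% higher. The 2 code-named compounds differed in all 3 genes at a matched dose and time, and DW71374 did not differ from DMSO in any of them beyond the spread of the arrays.

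**Figure D3:**
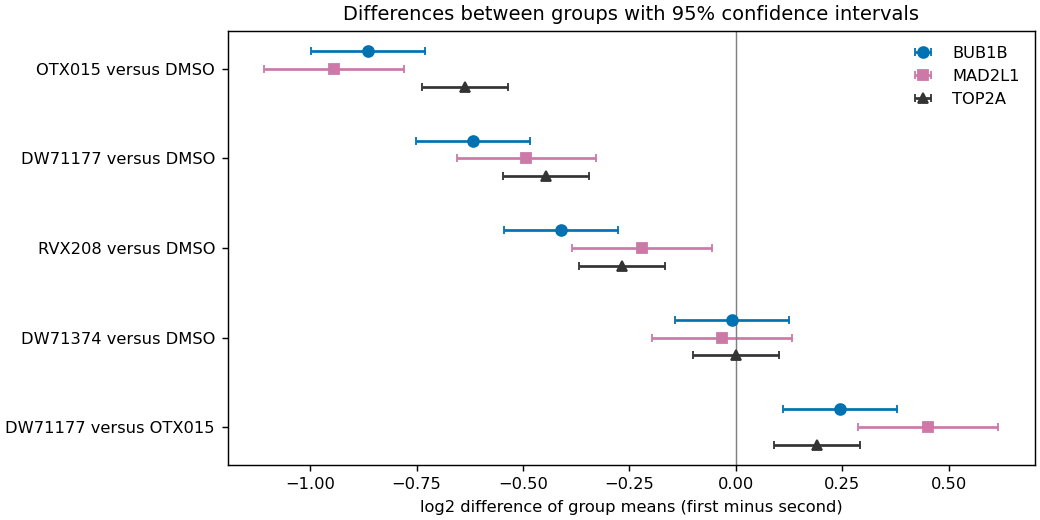
Log2 differences of group means (x axis) with 95% confidence intervals (bars) for BUB1B, MAD2L1 and TOP2A in 5 comparisons. The intervals of DW71374 against DMSO span 0 for each gene, and MAD2L1 has the largest difference between DW71177 and OTX015, at 0.45.

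Whether the 3 genes moved by unequal amounts was asked with the difference of 2 genes within each array, which was compared between 3 compound and 3 DMSO arrays by a two-sided exact permutation test. In this design 0.1 is the smallest p, and 12 such tests were made. With OTX015, MAD2L1 changed by -0.31 relative to TOP2A and BUB1B by -0.23 (log2, exact p = 0.1 and 0.3 adjusted over the 12 tests for each), and the arrays did not overlap. MAD2L1 relative to TOP2A changed by -0.05 with DW71177 and by 0.05 with RVX208, both with overlap (exact p = 0.8 and 0.7, adjusted 0.8 for each). BUB1B also changed by -0.17 relative to TOP2A with DW71177 and by -0.14 with RVX208, both without overlap (exact p = 0.1, adjusted 0.3). BUB1B relative to MAD2L1 changed by 0.08 in the OTX015 arrays, -0.13 in the DW71177 arrays and -0.19 in the RVX208 arrays, and each time the arrays overlapped those of DMSO (exact p = 0.4, 0.4 and 0.2, adjusted 0.69, 0.69 and 0.48).

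The partners of the 3 proteins did not all move with them. BUB3, which carries BUB1B to kinetochores, was at 10.126, 10.109 and 10.153 in DMSO and 10.063, 10.074 and 10.067 with OTX015, a difference of -0.06 ± 0.054 that did not pass (limma adjusted p = 0.5). MAD1L1, the kinetochore anchor of MAD2L1, differed by -0.07 ± 0.060 (limma adjusted p = 0.47). CDC20, the activator of the anaphase-promoting complex that the checkpoint captures, fell 1.21-fold with OTX015 and 1.19-fold with DW71177 (-0.27 ± 0.055 and -0.26 ± 0.055, limma adjusted p = 0.0019 and 0.004), and differed by -0.13 ± 0.055 with RVX208 (limma adjusted p = 0.22). Of the 4 subunits of the mitotic checkpoint complex, BUB1B, MAD2L1 and CDC20 fell with OTX015, where 14.5% of all genes fell, and BUB3 did not pass. BUB1B and MAD2L1 were chosen with earlier results of these data known, so this count is a description and not a test.

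TOP2B, the topoisomerase II form of resting as well as dividing cells, was at 10.060, 9.995 and 9.952 in DMSO and 10.065, 10.147 and 10.096 with OTX015. Its differences from DMSO were 0.10 ± 0.056 for OTX015, 0.11 ± 0.056 for DW71177 and 0.09 ± 0.056 for RVX208, none of which passed (limma adjusted p = 0.24, 0.2 and 0.44). TOP1, which relaxes DNA by single-strand cuts, rose 1.18-fold with OTX015 and 1.23-fold with DW71177 (0.24 ± 0.063 and 0.30 ± 0.063, limma adjusted p = 0.01 and 0.0037) and differed by 0.18 ± 0.063 with RVX208 (limma adjusted p = 0.11). Within arrays, TOP2A changed relative to TOP2B by -0.74 in the OTX015 arrays, -0.56 in the DW71177 arrays and -0.35 in the RVX208 arrays, and BUB1B relative to BUB3 by -0.80, -0.58 and -0.44. In all 6 cases the compound and DMSO arrays did not overlap (exact permutation p = 0.1 each, the smallest possible, and 0.15 adjusted over 12 tests). MAD2L1 relative to MAD1L1 changed by -0.87, -0.43 and -0.21, with overlap for RVX208 (exact p = 0.1, 0.1 and 0.2). These pairs were chosen after their values had been seen.

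**Figure D4:**
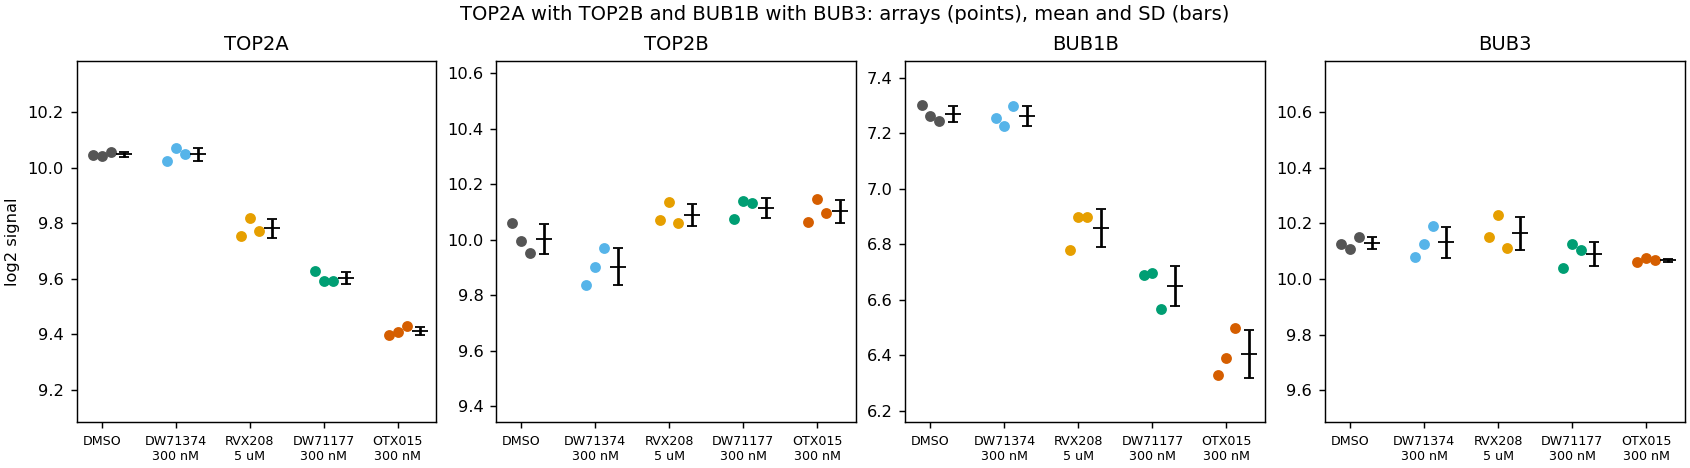
Log2 signal of TOP2A, TOP2B, BUB1B and BUB3 in each array by group, with the mean and SD of 3 arrays; the y axes differ in position and span the same number of log2 units. TOP2A and BUB1B step down from RVX208 to OTX015, whereas TOP2B and BUB3 stay near 10.1 in those groups.

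Among 20 listed genes of mitotic checkpoint signalling 18 were measured, the 2 members included. With OTX015 15 fell and 0 rose, where 14.5% of all genes fell and 11.2% rose, with a list median of -0.49 against -0.004 over all genes. TRIP13, the ATPase that takes checkpoint complexes apart, fell most, by 2.26-fold (log2 -1.18 ± 0.10, limma adjusted p = 1.2e-06), ahead of MAD2L1 and BUB1B. In the chromosomal passenger complex, which corrects faulty attachments, the kinase AURKB differed by -0.67, CDCA8 by -0.54, INCENP by -0.35 and BIRC5 by -0.30. The checkpoint kinases TTK, BUB1 and PLK1 differed by -0.62, -0.50 and -0.48, the histone kinase HASPIN by -0.60, the kinetochore scaffold KNL1 by -0.33, and KNTC1 and SPDL1, which bring dynein to kinetochores, by -0.64 and -0.43. All of these passed, as CDC20 did, while BUB3, MAD1L1 and MAD2L1BP, the adaptor of TRIP13 at 0.06, did not.

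With DW71177 13 of the 18 checkpoint genes fell and 0 rose (9.88% and 9.95% of all genes, median -0.35 against -0.006 over all genes), the 5 others being KNL1, BIRC5, MAD1L1, BUB3 and MAD2L1BP. TRIP13 fell 1.86-fold (-0.90 ± 0.10, limma adjusted p = 2.5e-05), AURKB differed by -0.53 and TTK by -0.46. With RVX208 3 of 18 fell, TRIP13 (-0.38 ± 0.10, limma adjusted p = 0.039), BUB1B and AURKB (-0.32), where 3.11% of all genes fell, with a median of -0.12 against -0.01. With DW71374 0 of 18 changed in limma, as 0 of all genes did, and the median was 0.003. Between DW71177 and OTX015 2 of 18, MAD2L1 and HASPIN (0.38), were higher with DW71177 and 0 lower (1.07% and 0.182% of all genes), with a median of 0.15 against 0.01 over all genes.

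**Figure D5:**
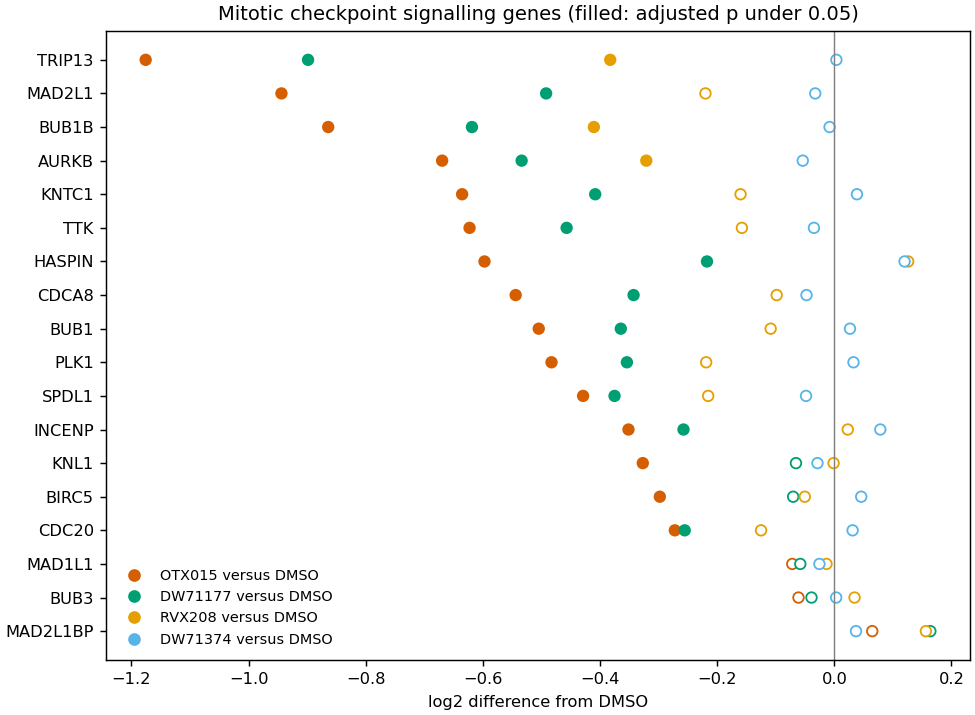
Log2 difference from DMSO (x axis) of 18 mitotic checkpoint signalling genes, ordered by the OTX015 difference, with filled points for an adjusted p under 0.05. TRIP13, MAD2L1 and BUB1B lie farthest to the left with OTX015, and MAD1L1, BUB3 and MAD2L1BP have open points for each compound.

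Genes around the checkpoint were described in the same way, and their counts are to be read against all genes, of which 14.5% fell and 11.2% rose with OTX015, 9.88% and 9.95% with DW71177, and 3.11% and 3.41% with RVX208. The medians over all genes were -0.004, -0.006 and -0.01. The lists overlap, so their counts are not independent. BUB1, TTK, AURKB and PLK1 are in the checkpoint and mitotic entry lists. CCNA2, CCNB1 and CCNB2 are in those of the anaphase-promoting complex and of mitotic entry. CDC20 is in the checkpoint and anaphase-promoting complex lists, and PTTG1 in the anaphase-promoting complex and cohesin lists. Of 30 listed kinetochore genes 21 were measured, without NUF2, SPC24, SPC25, DSN1, MIS12, NSL1, PMF1, CENPE and CENPF. Of these 21, 18 fell with OTX015, 13 with DW71177 and 1 with RVX208, with 0 rising, and list medians of -0.47, -0.30 and -0.16. The RVX208 count is near the share over all genes. CENPH and CENPQ of the inner kinetochore and SKA3, which holds kinetochores to microtubules, led with OTX015 at -1.002 ± 0.14, -0.96 ± 0.14 and -0.76 ± 0.056 (limma adjusted p = 8.9e-05, 0.00014 and 2.7e-07). CENPQ was dim with OTX015, at 4.84, under the level of 5 used for brighter genes. Of 22 genes of the anaphase-promoting complex and its substrates 10 fell and 1 rose with OTX015 (14.5% and 11.2% of all genes), a median of -0.16. CCNA2, ANAPC1 and ANAPC13 differed by -0.71 ± 0.057, -0.61 ± 0.076 and -0.55 ± 0.080, and the subunit gene ANAPC16 rose by 0.29 ± 0.070, by 0.39 with DW71177 and by 0.33 with RVX208 (limma adjusted p = 0.0062, 0.0011 and 0.012).

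Of 16 listed topoisomerase, condensin and chromosome surface genes 9 were measured. The condensin genes NCAPD2, NCAPD3, NCAPG, NCAPG2, NCAPH and NCAPH2 were not among them. Of the 9, TOP2A, SMC2 and MKI67 fell and TOP1 rose with OTX015, where 25.7% of all genes were called. SMC2, a condensin core subunit, fell 1.90-fold (-0.93 ± 0.094, limma adjusted p = 5.1e-06), and MKI67, the Ki-67 gene, 1.43-fold (-0.52 ± 0.054, limma adjusted p = 6.2e-06). The same 4 were called with DW71177, in the same directions, and with RVX208 2 fell, TOP2A and MKI67. Of 16 cohesin genes 8 fell and 1 rose with OTX015 (14.5% and 11.2% of all genes, median -0.14), led by the protease gene separase, ESPL1 (-0.67 ± 0.076), by the cohesin protector SGO1 (-0.62 ± 0.082) and by STAG1 (-0.44 ± 0.075), while the loader gene NIPBL rose by 0.27 ± 0.058 (limma adjusted p = 1.4e-05, 5.9e-05, 0.00046 and 0.0028).

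All 20 measured genes of mitotic entry fell with OTX015, 18 with DW71177 and 3 with RVX208 (medians -0.50, -0.34 and -0.14), against 14.5%, 9.88% and 3.11% of all genes. CDC25A, the phosphatase that activates cyclin-dependent kinases, fell 2.41-fold with OTX015 (-1.27 ± 0.072), the centriole kinase PLK4 1.83-fold (-0.87 ± 0.090) and PBK 1.64-fold (-0.71 ± 0.066; limma adjusted p = 2.9e-08, 5.9e-06 and 2.1e-06). Of 19 cell-cycle transcription regulators 13 fell and 3 rose with OTX015, 11 and 3 with DW71177, and 3 and 1 with RVX208 (medians -0.42, -0.26 and -0.15). The counts that rose are near the shares over all genes, 11.2%, 9.95% and 3.41%, and those that fell compare with 14.5%, 9.88% and 3.11%. MYC fell by 1.42 ± 0.054 on the log2 scale (log2 -1.42), MYBL2, the B-Myb activator of mitotic genes, by 0.89 (-0.89 ± 0.058) and RBL1 by 0.87 (-0.87 ± 0.068; limma adjusted p = 7.7e-10, 1e-07 and 4.5e-07). The 3 that rose were the retinoblastoma gene RB1 (0.70 ± 0.052, limma adjusted p = 2.9e-07), LIN37 of the DREAM complex (0.27 ± 0.077, limma adjusted p = 0.018) and MYBL1, which was dim at 3.50 in DMSO. RB1 was also higher by 0.72 with DW71177 and by 0.47 with RVX208 (limma adjusted p = 5.6e-07 and 0.00014). FOXM1, a second activator of mitotic genes, named here after its values were seen, fell 1.72-fold with OTX015 (-0.78 ± 0.069, limma adjusted p = 1.4e-06).

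The CHR letters were also counted in the promoters of these lists. Of the 18 measured checkpoint genes 12 had a promoter in the table, and 7 of them (58.3%) held TTTGAA: BUB1B, MAD2L1, CDC20, SPDL1, INCENP, CDCA8 and PLK1. The share was 55.6% of 9 promoters of the topoisomerase and condensin list, 47.1% of 17 kinetochore promoters, 43.8% of 16 promoters of mitotic entry genes, 22.7% of 22 promoters of the anaphase-promoting complex list, 20% of 15 promoters of the transcription regulators and 15.4% of 13 cohesin promoters. These are descriptions of lists that share some genes, to be read against 11.8% of the promoters of genes analysed here.

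The genes most like each of the 3 were taken as those with the smallest root mean square distance over the 4 log2 differences from DMSO, among 4508 other genes with a mean signal of at least 6. For BUB1B these were ATL3 (distance 0.013), CHID1, PRDX2, MCM7 and DTD1 (0.035 to 0.045). For MAD2L1 they were CENPH and DSCC1 (0.033 each), CFP, CEP41 and CDK4 (0.042 to 0.043). For TOP2A they were AARS1 (0.016), REPIN1, PPIH, CENPM and ANKRD27 (0.017 to 0.024). The distance between BUB1B and MAD2L1 was 0.12, which made MAD2L1 the 133rd closest gene to BUB1B. TOP2A lay 0.16 from either of them, as the 245th closest gene to BUB1B and the 206th closest to MAD2L1.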

How the data were processed

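The deposited table held log2 signals of 44629 features in 15 arrays. The scale was inferred from the values, and their near-identical upper quartiles (5.25 to 5.28) point to normalization between arrays by the authors. Background correction, method, software and build: not given in the sources used here. Platform annotation named 1 gene for 15835 features, several for 0 and none for 28794, and all 15835 matched the RefSeq gene table by gene ID. The feature of highest mean was kept for each of 14812 genes.

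Groups and replicate numbers came from the sample titles. One limma 3.58.1 fit (R 4.3.3, lmFit and eBayes) of 5 group means, with 10 residual degrees of freedom and no level filter, gave two-sided p-values, adjusted by Benjamini-Hochberg over all genes. The fit was tested on simulated data. The 3 genes and the gene lists were chosen with earlier results of these data known. In each list the 3 genes most changed with OTX015 among those called, and called genes moving against the list median, were named; all checkpoint genes were named. Promoters came from RefSeq (GRCh38.p14). Alternatives were a replicate block, quantile normalization, brighter genes, trended and robust variance, array weights, 6 arrays, mean features, all features and each array left out.

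Arrays give no counting depth, and their number limits the precision.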

Additional observations from a re-analysis of the deposited data

How the results depend on the processing

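The falls of BUB1B, MAD2L1 and TOP2A with OTX015 and DW71177, against DMSO or DW71374, stayed past the threshold under all 23 alternatives, as did those of BUB1B and TOP2A with RVX208. Their direction also held under quantile normalization, array weights and the loss of an array of the groups compared. The other alternatives could not move these differences, only their adjusted p. Taking the mean of features left the values of these genes as they were, since each has 1 feature. MAD2L1 with RVX208 (-0.22) passed among genes with a group mean of at least 5 and with trended, robust variance, and so did BUB1B (0.245) and TOP2A (0.191) between DW71177 and OTX015. MAD2L1 in that pair (0.45) did not pass in the fit of 6 arrays (0.452), nor without DW71177 replicate 2 or DW71177 replicate 3. Its difference ranged from 0.40 to 0.53 with 1 array left out. DW71374 against DMSO changed sign around 0: TOP2A was -0.0107 with quantile normalization and -0.0115 to 0.0119 with 1 array left out, and BUB1B ranged from -0.0274 to 0.0085. With 1 array left out, the unequal changes of BUB1B and MAD2L1 (-0.0111 to 0.0474), BUB1B and TOP2A (-0.0272 to 0.0201) and MAD2L1 and TOP2A (-0.0725 to 0.0031) with DW71374 also spanned 0. So did MAD2L1 and TOP2A with DW71177 (-0.1037 to 0.0473) and RVX208 (-0.0042 to 0.1079). The cause was not tested.

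Counts of genes called moved more. With all features OTX015 gave 5872 calls against DMSO (3800 among genes) and 5604 against DW71374 (3730), more features being tested. RVX208 gave 966, and 1602 among brighter genes, 1485 with trended variance, 609 from 6 arrays and 564 to 1050 with 1 array left out, the 6 lowest counts (564 to 636) being those without a DMSO or RVX208 array. DW71177 against OTX015 gave 186, and 593 among brighter genes, 497 with trended variance, 118 with array weights, 79 with all features, 1 from 6 arrays and 71 to 139 with 1 array left out, the lowest without DW71177 replicate 2 (71) or 3 (74) or OTX015 replicate 1 (80). DW71374 gave 0, and 0 to 1 with 1 array left out, 1 without RVX208 replicate 3. The replicate block gave 107 calls for DW71177 against OTX015, where MAD2L1 still passed, and changed no call of the 3 genes. Same-numbered arrays correlated at -0.222 to 0.209 in their deviations from the group means. With 3 arrays per group this cannot show whether same-numbered arrays were handled together, and the labels do not say.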
